A study of Mus musculus with 6 samples.

Results

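Transcript levels of 8 genes of cholesterol synthesis were followed in endothelial cells (EC) of the mouse lung between infancy and young adulthood. The 8 genes were chosen by name, as the rows of the expression table whose symbol is Hmgcs1, Idi1, Fdps, Fdft1, Sqle, Lss, Cyp51 or Insig1. They are 8 of the 12623 genes of the table, and all 8 were among the 12458 genes tested. 7 encode enzymes of the pathway and Insig1 encodes a regulator of it.

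Cholesterol is built from acetyl-CoA. HMG-CoA synthase and the enzymes after it make mevalonate and then short isoprenoid units, which are joined into farnesyl pyrophosphate, a branch point that also feeds protein prenylation, ubiquinone and dolichol. Farnesyl pyrophosphate is then committed to sterols by joining it into squalene, which is oxidised, closed to lanosterol and trimmed in many steps to cholesterol. When sterols in the endoplasmic reticulum run low, SCAP carries the transcription factor SREBP2 to the Golgi, where it is cut and freed to switch on most genes of the pathway. When sterols are plentiful, INSIG proteins hold SCAP back, and Insig1 is itself a target of SREBP. EC, the cells that line blood vessels, also take up cholesterol from circulating lipoproteins.

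The comparison addressed how EC change when vessels cease growing and become quiescent. RNA-seq was done on lung EC of C57BL/6N mice that carried no named genetic change and received no named treatment, in 3 infant and 3 young adult libraries. Per the study's methods, live cells positive for CD31 and CD34 and negative for PTPRC, LYVE1, PDPN and LY76 were sorted, so that leukocytes, lymphatic EC and erythroid cells were gated out. Levels are given in RPKM, reads per kilobase of transcript scaled to the mapped reads of the library, which is a scale per length. The number of reads behind each value is unknown, so no counting error could be attached to single values, and the precision is given by the spread over the 3 libraries of a group. In sorted bulk cells, fewer cells of a type and less RNA per cell cannot be told apart.

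Pecam1, the gene of the sorting antigen CD31, was between 309.8 and 657.8 RPKM in all 6 libraries. The 12 endothelial markers summed to between 3271 and 4904 RPKM in infant and between 5349 and 5856 RPKM in young adult libraries, with 10 positive log2 fold changes, a median of 0.48 and 1 marker higher at the adjusted threshold. All 6 libraries also held RNA of other cells. The 9 fibroblast markers summed to between 319 and 1268 RPKM in infant EC and between 8.8 and 21.3 RPKM in young adult libraries, with 8 of 9 lower at the adjusted threshold. The 8 mural markers summed to between 62.4 and 222 against 11.4 to 14.6 RPKM (7 lower), the 7 erythroid markers to between 9656 and 79864 against 822 to 1351 RPKM (7 lower), and the 10 genes of dividing cells to between 8.1 and 46.1 against 0.8 to 1.3 RPKM (10 lower). Of those 10, Bub1 was listed at 0 in all 3 young adult libraries. The sums of the 8 epithelial markers in the table overlapped between the groups (6378 to 11222 and 1782 to 8273 RPKM). Those of 7 leukocyte markers did too (313 to 510 and 140 to 551 RPKM). All 8 and all 7 log2 fold changes were nevertheless negative, with medians of -0.94 and -1.22. In each of these 2 lists, 3 markers were lower at the adjusted threshold and 4 were lower without overlap. The epithelial sum exceeded the endothelial sum in each infant library and in young adult replicate 3 (8273 against 5856 RPKM). The epithelial marker Sftpc alone was at 1451 to 4883 RPKM over the 6 libraries. Infant replicate 2 stood apart, with the lowest fibroblast, mural, erythroid and dividing-cell sums of the infant group. It also had the highest endothelial (4904 RPKM), epithelial (11222 RPKM) and leukocyte (510 RPKM) sums of that group. Globin transcripts took 3.41% to 23.5% of the RPKM of all genes in infant EC and 0.307% to 0.487% in young adult libraries. A sum over 4 Y-linked genes lay between 42.2 and 47 RPKM in infant libraries and at 0 in the young adult ones, although the methods name female mice, so age and sex of the animals cannot be told apart. The part of these differences in the results on cholesterol genes was not tested, except where a value is given.

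Promoter windows from RefSeq (build GRCm38.p6) were on hand for 5 of the 8 genes, Hmgcs1, Idi1, Lss, Cyp51 and Insig1, while those of Fdps, Fdft1 and Sqle were not used here. SREBP binds sterol regulatory elements and acts together with NF-Y, which binds CCAAT boxes, and with SP1, which binds GC boxes. Therefore 250 bases before each start site were searched on both strands for the letters TCACNCCAC, CACNCCAC, CCAAT and GGGCGG, the second of which lies within the first. The letters TCACNCCAC were found in 1.05% of all 32851 windows, CACNCCAC in 5.29%, CCAAT in 33.9% and GGGCGG in 32.7%. Each of the 5 promoters held at least 1 CCAAT and at least 1 GGGCGG. Hmgcs1 was the only one of the 5 with TCACNCCAC, between 137 and 129 bases before the start, and Insig1 had CACNCCAC between 9 and 2 bases before its start. Because Hmgcs1 also differed in direction from the other genes, the 150 bases before its start are shown on the gene's strand, at chr13:119690201-119690350 on the plus strand, with the TCACNCCAC match and the nearest CCAAT box, read on the other strand as ATTGG, in capitals.
Hmgcs1: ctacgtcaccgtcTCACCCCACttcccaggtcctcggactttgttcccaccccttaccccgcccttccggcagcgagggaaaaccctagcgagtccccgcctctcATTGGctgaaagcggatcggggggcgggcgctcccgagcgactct

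The CCAAT box, which like the GC box was found in all 5 promoters, is shown for the other 4 with up to 10 bases on each side, on the strand of the gene and with the box in capitals. The windows lie at chr13:8885582-8885605 (Idi1, plus strand), chr10:76531533-76531557 (Lss, plus strand), chr5:4104712-4104736 (Cyp51, minus strand) and chr5:28071186-28071210 (Insig1, plus strand).
Idi1: ccaaggtgccATTGGctggcgacc
Lss: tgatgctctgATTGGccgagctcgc
Cyp51: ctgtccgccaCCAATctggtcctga
Insig1: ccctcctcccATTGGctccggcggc
In these 4 windows the box began 14, 62, 29 and 216 bases before the RefSeq start site, in the order listed, and 45 bases before it in Hmgcs1. In the GENCODE annotation a transcript begins 105 (Idi1), 17 (Lss), 49 (Cyp51) and 49 (Insig1) bases before that site. The boxes shown for Idi1 and Cyp51 and the CACNCCAC match of Insig1 thus lie within an annotated transcript. A match describes letters and was not tested as a binding site.

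**Figure D1:**
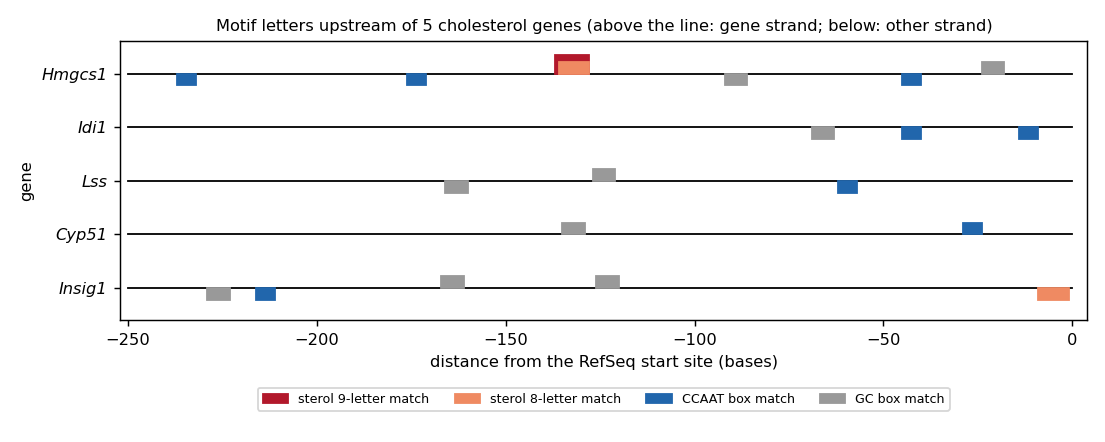
Matches to the 4 motifs in 250 bases before the RefSeq start site of 5 cholesterol genes, plotted by distance from the start in bases, with matches on the strand of the gene above the line and those on the other strand below it. Each line carries at least 1 CCAAT box and 1 GC box, and the 9-letter sterol match is seen in Hmgcs1 only, between 137 and 129 bases before the start.

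Between infancy and young adulthood, 3 of the 8 genes rose (Fdps, Idi1 and Insig1) and 1 fell (Hmgcs1) at a Benjamini-Hochberg adjusted p under 0.05 in limma. Among all genes tested, 9.26% were higher and 16.2% were lower at this threshold. None of the 8 also exceeded the fold limit of the study, a change of 0.81 on the log2 scale, which 11.4% of all genes passed together with the p threshold. At an unadjusted p under 0.05 the count was 6 of 8, against 40.4% of all genes. The 3 infant and the 3 young adult values did not overlap in 6 genes, 5 of them higher in young adult EC and 1 lower, against 16.4% and 27.1% of all genes. The median log2 fold change of the 8 genes, young adult over infant (log2 change in what follows), was 0.36, beside -0.07 over all genes. The 12 endothelial markers had a median of 0.48, with 6 of 12 higher in young adult EC without overlap, and the part of the EC content in the results on the 8 genes was not tested. Fold changes were fitted on log2(RPKM + 1), which understates the change of genes with low RPKM. The ratio of the mean RPKM, young adult to infant, is therefore added for the 8 genes. It was 1.19 for Fdft1, 1.31 for Sqle and 1.04 for Cyp51, and is given below for the others.

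**Figure D2:**
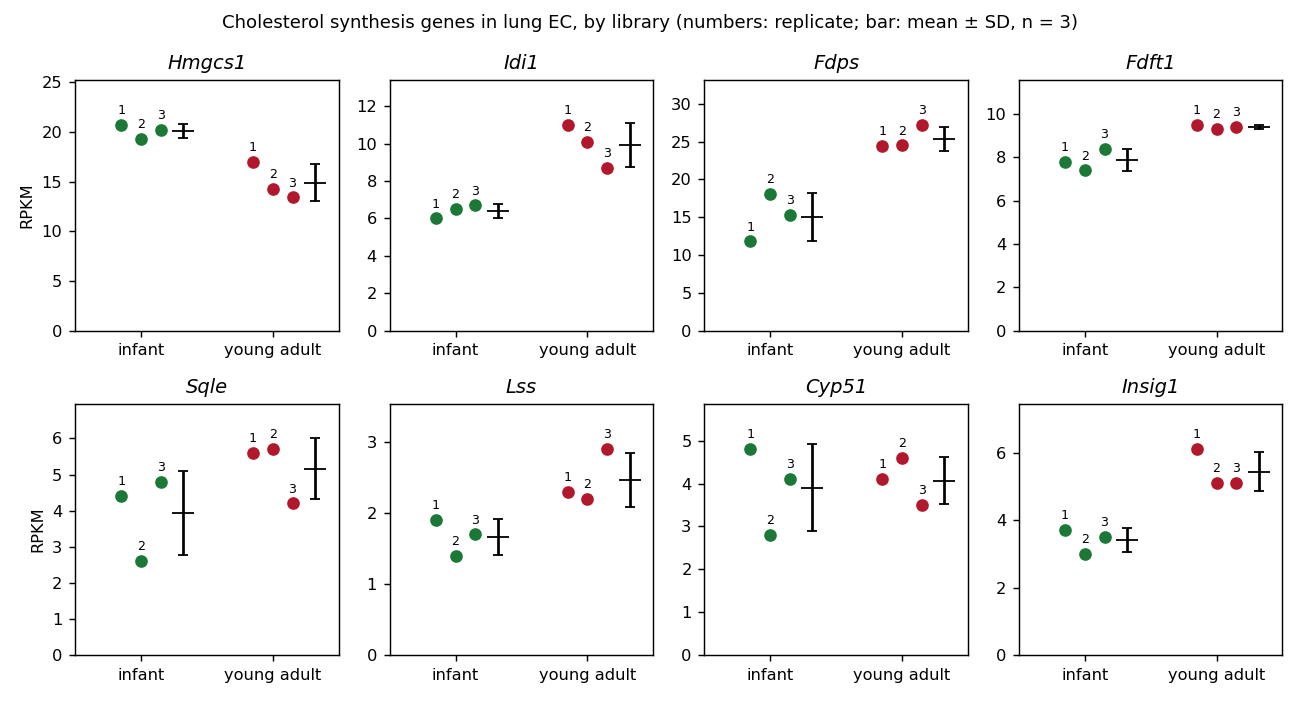
RPKM of the 8 genes in each library, with infant libraries in green, young adult libraries in red, the replicate number above each point and the mean ± SD (n = 3) in black; each axis starts at 0. Hmgcs1 is the one gene with all young adult values below all infant values, Sqle and Cyp51 overlap between the groups, and the other 5 genes have every young adult value above every infant value.

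Hmgcs1 encodes the cytosolic HMG-CoA synthase, which condenses acetyl-CoA with acetoacetyl-CoA at the entry of the pathway. The gene lies on the plus strand at chr13:119690351-119708260 of GRCm38.p6. Its RPKM was 20.7, 19.3 and 20.2 in the infant libraries, in the order of replicates 1 to 3 as for all genes, and 17.0, 14.3 and 13.4 in the young adult ones. Every young adult library thus lay below every infant library. The means were 20.1 ± 0.709 and 14.9 ± 1.87 RPKM (SD, n = 3 each), a ratio of 0.743. Hmgcs1 fell by 0.41 on the log2 scale (SE 0.11, adjusted p = 0.0294, limma). The fall was seen in each alternative, but the adjusted p rose to 0.0797 when libraries were scaled to TPM and to between 0.0823 and 0.104 when infant replicate 1, infant replicate 3, young adult replicate 2 or young adult replicate 3 was left out.

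Idi1 encodes isopentenyl-diphosphate isomerase, which interconverts the basic isoprenoid units. It lies on the same chromosome as Hmgcs1, on the plus strand at chr13:8885606-8892396. Its RPKM was 6.0, 6.5 and 6.7 in infant libraries and 11.0, 10.1 and 8.7 in young adult libraries, with no overlap. The mean went from 6.4 ± 0.361 to 9.93 ± 1.16 RPKM (SD, n = 3 each), a 1.55-fold ratio. Idi1 rose by 0.56 on the log2 scale (SE 0.11, adjusted p = 0.0118, limma). Without young adult replicate 2 the adjusted p was 0.0528.

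Fdps encodes farnesyl diphosphate synthase, the enzyme at the branch point between sterols and other isoprenoids. It lies on the minus strand at chr3:89093588-89101967. Its RPKM was 11.8, 18.1 and 15.3 in infant libraries and 24.4, 24.5 and 27.2 in young adult libraries. The groups did not overlap. Infant replicate 2 had the highest infant value. By marker sums it held the fewest fibroblast and dividing-cell and the most endothelial, epithelial and leukocyte transcripts of its group. Its fibroblast sum was 319 RPKM, beside 8.8 to 21.3 RPKM in young adult libraries. The part of other cells in the values of Fdps was not tested. The mean went up from 15.1 ± 3.16 to 25.4 ± 1.59 RPKM (SD, n = 3 each), a 1.68-fold ratio, the largest of the 8 genes. The log2 change was 0.73 (SE 0.15, adjusted p = 0.0135, limma). Leaving out infant replicate 2 took it past the fold limit (log2 change 0.87), and without young adult replicate 1 or 2 the adjusted p was 0.05003 and 0.0541. Fdps was listed as 2 transcript rows, and the second, with 10.3, 15.5 and 13.1 RPKM in infant EC and 21.0, 21.1 and 23.3 RPKM in young adult EC, gave a log2 change of 0.72 (adjusted p = 0.0124 when each row was tested as a feature of its own).

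Of the 4 enzymes after the branch point, 0 passed the test in limma, with 2 at an unadjusted p under 0.05. Fdft1, or squalene synthase, makes the first intermediate committed to sterols (minus strand, chr14:63145150-63181687). Its RPKM was 7.8, 7.4 and 8.4 in infant EC and 9.5, 9.3 and 9.4 in young adult libraries. The groups did not overlap and the young adult values were the tightest of the 8 genes (coefficient of variation 1.06%). The log2 change of 0.23 (SE 0.09, 95% interval 0.03 to 0.44) did not pass the test (adjusted p = 0.0922), although it did with quantile normalization (adjusted p = 0.0457).

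Sqle encodes squalene epoxidase, which adds oxygen to squalene and is regarded as a rate-limiting step after HMG-CoA reduction (plus strand, chr15:59315092-59331193). Its RPKM was 4.4, 2.6 and 4.8 in infant EC and 5.6, 5.7 and 4.2 in young adult libraries. The groups overlapped, since young adult replicate 3 lay below infant replicates 1 and 3. The log2 change was 0.34 (SE 0.20, adjusted p = 0.230, limma), and its 95% interval from -0.11 to 0.80 left room for a change in either direction.

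Lss, or lanosterol synthase, closes the sterol rings (plus strand, chr10:76531565-76557139) and had the lowest level of the 8 genes in both groups. Its RPKM was 1.9, 1.4 and 1.7 in infant EC and 2.3, 2.2 and 2.9 in young adult libraries. The groups did not overlap, the ratio of means was 1.48, and the log2 change of 0.38 (SE 0.13, 95% interval 0.07 to 0.69) did not pass the test (adjusted p = 0.0744, limma), although it did with quantile normalization (adjusted p = 0.0104). Values this low carry the rounding of the table to 0.1 RPKM.

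Cyp51 encodes lanosterol 14-alpha-demethylase, which starts the trimming of lanosterol (minus strand, chr5:4080674-4104697). Its RPKM was 4.8, 2.8 and 4.1 in infant EC and 4.1, 4.6 and 3.5 in young adult libraries, and the groups overlapped. The log2 change was 0.06 (SE 0.17, 95% interval -0.33 to 0.46, adjusted p = 0.808, limma). Its sign depended on the processing, with -0.02 after rescaling without globin genes and -0.11 without infant replicate 2. In Fdft1, Sqle, Lss, Cyp51 and Insig1 alike, infant replicate 2 had the lowest value of all 6 libraries.

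Insig1, the regulator that keeps SCAP in the endoplasmic reticulum, lies on the plus strand at chr5:28071412-28078662. Its RPKM was 3.7, 3.0 and 3.5 in infant EC and 6.1, 5.1 and 5.1 in young adult libraries, with no overlap. The mean went up from 3.4 ± 0.361 to 5.43 ± 0.577 RPKM (SD, n = 3 each), a 1.60-fold ratio. The log2 change was 0.55 (SE 0.11, adjusted p = 0.0147, limma), and the adjusted p was 0.0567 without young adult replicate 1. Its paralog Insig2, which is not a typical SREBP target, had 15.4, 19.6 and 16.4 RPKM in infant EC and 15.9, 17.2 and 15.9 RPKM in young adult EC (log2 change -0.06, adjusted p = 0.723). Insig2 was therefore the higher of the pair in each library, and the ratio of Insig1 to Insig2 in RPKM was between 0.153 and 0.240 in infant EC and between 0.297 and 0.384 in young adult EC.

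The order of the levels changed with age. In infant EC the order in mean RPKM was Hmgcs1 (20.1), Fdps (15.1), Fdft1 (7.87), Idi1 (6.4), Sqle (3.93), Cyp51 (3.9), Insig1 (3.4) and Lss (1.67). Of these neighbours, Sqle and Cyp51 overlapped in their ranges, as did Cyp51 and Insig1. In young adult EC it was Fdps (25.4), Hmgcs1 (14.9), Idi1 (9.93), Fdft1 (9.4), Insig1 (5.43), Sqle (5.17), Cyp51 (4.07) and Lss (2.47). Here Idi1 and Fdft1 overlapped, as did Insig1 and Sqle, and Sqle and Cyp51. Fdps and Hmgcs1 thus exchanged the first place. The ratio of Fdps to Hmgcs1 within a library, on which the scaling of that library has no influence, was 0.570, 0.938 and 0.757 in infant EC and 1.44, 1.71 and 2.03 in young adult EC, so that it was below 1 in 3 of 3 infant and above 1 in 3 of 3 young adult libraries. Of the summed RPKM of the 8 genes, Hmgcs1 made up 33.9%, 31.6% and 31.2% in infant EC and 21.3%, 18.9% and 18.0% in young adult libraries. The sum itself was 61.1, 61.1 and 64.7 RPKM in infant EC and 80, 75.8 and 74.4 RPKM in young adult EC. With globin genes left out of the total, its share of the RPKM of all genes lay closer between the groups. It was 0.0250%, 0.0224% and 0.0250% in infant EC and 0.0300%, 0.0276% and 0.0253% in young adult EC.

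The profiles of the 8 genes over the 6 libraries were compared after each gene's log2(RPKM + 1) was centred on its own mean. The distance between 2 genes was the mean absolute difference of these centred values, given as a description without a test. Idi1 and Insig1 were the closest pair (0.09), followed by Fdft1 and Lss (0.10), Insig1 and Lss (0.14) and Sqle and Cyp51 (0.15). Fdps was nearest to Idi1 (0.18). Hmgcs1 was the farthest gene for 6 of the other 7, and its own nearest neighbour was Cyp51 (0.24). Among 6980 non-member genes with a mean of at least 5 RPKM, the genes most like the mean profile of the 8 were Pi4ka, Taf6, Ints4, Cwc27 and Cyb5d1, with distances from 0.0350 to 0.0414 beside a median of 0.21. Their log2 changes of 0.23 to 0.31 did not pass the test, and Fdft1, the member closest to that mean profile, had a distance of 0.05.

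A list of 13 further enzymes of the pathway, of which 12 were tested, showed 4 genes that rose and 0 that fell in limma, with 6 at an unadjusted p under 0.05 and a median log2 change of 0.23. Beside them, 9.26% of all genes rose, 16.2% fell and 40.4% had an unadjusted p under 0.05. None of the 12 enzymes passed the fold limit. The 4 were Msmo1, Ebp, Sc5d and Lbr, and each of them acts after lanosterol. Msmo1 and Sc5d were outside the rule for named genes and were singled out after their values were seen, as was the grouping by position. Nsdhl, Tm7sf2 and Dhcr7, described below, were outside that rule as well. With Cyp51 of the 8 genes included, 9 tested enzymes act after lanosterol, of which 7 had a positive log2 change and 4 rose, with a median of 0.42. Of 7 tested enzymes up to farnesyl pyrophosphate, Idi1 and Fdps rose and Hmgcs1 fell, while Acat2, Mvk, Pmvk and Mvd did not pass the test (log2 changes 0.09, 0.23, 0.14 and -0.27), and the median was 0.14. The difference between early and late enzymes was not tested.

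Msmo1, listed under its older symbol Sc4mol, removes methyl groups at carbon 4 and had 10.7, 12.2 and 13.3 RPKM in infant EC and 23.8, 20.7 and 20.7 RPKM in young adult EC (log2 change 0.80, adjusted p = 0.00374, limma). It lay just below the fold limit and was past it in some of the alternatives. Ebp, the sterol isomerase, had 13.6, 16.5 and 16.1 RPKM in infant EC and 23.7, 24.0 and 25.5 RPKM in young adult EC (log2 change 0.64, adjusted p = 0.00614). Both genes had no overlap between the groups. Ebp lies on chromosome X, as does Nsdhl of the same list (log2 change 0.23, adjusted p = 0.153, limma). Xist was at 7.6 to 8.7 RPKM in infant EC and 12.5 to 15.6 RPKM in young adult ones. The part of sex in the values of Ebp and Nsdhl was not tested. Sc5d, the lathosterol desaturase, had 10.2, 9.6 and 10.2 RPKM against 13.7, 16.6 and 15.2 RPKM (log2 change 0.55, adjusted p = 0.00900). Lbr, a nuclear envelope protein that is also a sterol reductase, was the highest of the list with 44.0, 41.5 and 41.5 RPKM against 68.7, 63.4 and 52.7 RPKM (log2 change 0.52, adjusted p = 0.0190), and its adjusted p was 0.0641 after rescaling without globin genes and between 0.0521 and 0.0798 without infant replicate 1 or 3 or young adult replicate 1 or 2. Tm7sf2, the other enzyme of the same reduction, had a log2 change of -0.25 (adjusted p = 0.197). Dhcr7, which makes cholesterol from 7-dehydrocholesterol, was at 2.9, 2.4 and 3.5 against 4.1, 4.7 and 3.9 RPKM and did not pass (log2 change 0.42, adjusted p = 0.0535). Pmvk, the second highest of the list, had 16.7, 21.6 and 20.4 RPKM against 21.6, 20.7 and 22.5 RPKM (adjusted p = 0.382).

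**Figure D3:**
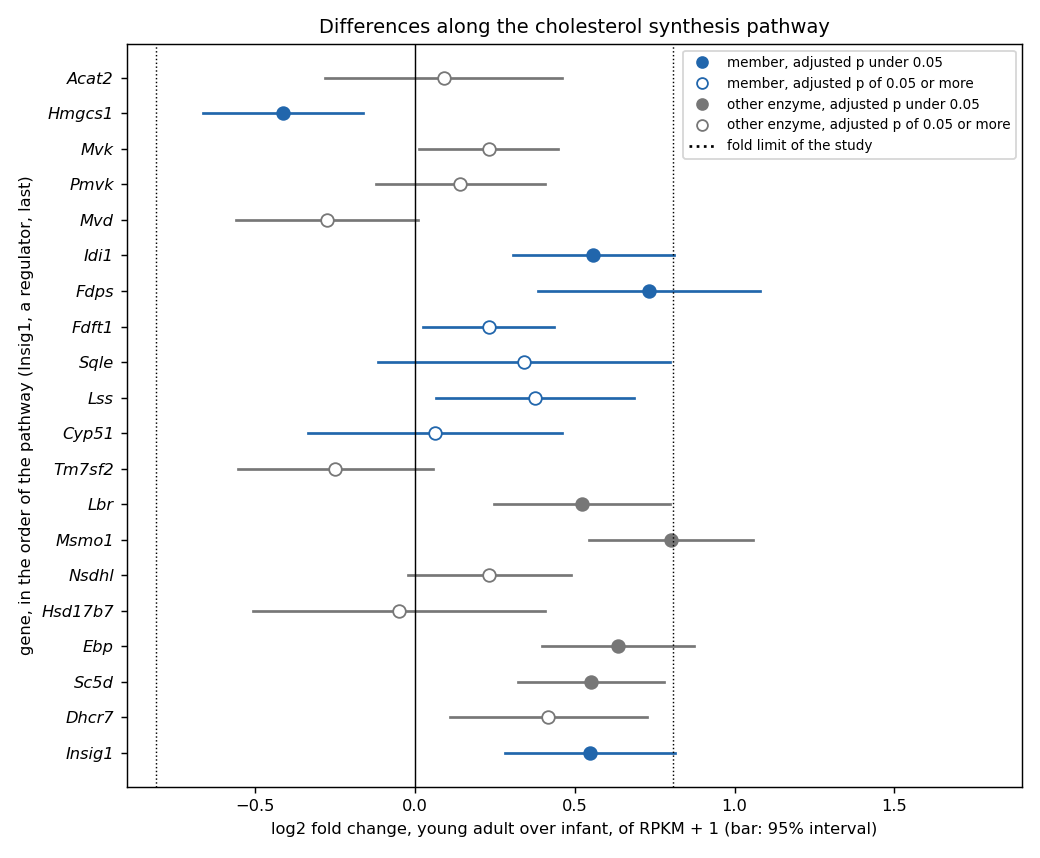
Log2 change of RPKM + 1, young adult over infant, with its 95% interval for the 8 genes (blue) and 12 further enzymes (grey) in the order of the pathway, with filled points at an adjusted p under 0.05 and dotted lines at the fold limit. Hmgcs1 is the one filled point left of 0, and no point lies past the dotted lines, the nearest being Msmo1 at 0.80.

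The control of the pathway was covered by a list of 14 genes for SREBP factors, their carriers, proteases and sterol-regulated degradation. Of these, 0 passed the test in limma in either direction, 3 had an unadjusted p under 0.05, and the median log2 change was -0.03. Srebf2, the gene of the factor that drives sterol synthesis, had 3.2, 2.1 and 2.7 RPKM in infant EC and 3.6, 3.8 and 4.3 RPKM in young adult EC, without overlap but short of the threshold (log2 change 0.43, adjusted p = 0.0563), and was named after its values were seen. It passed with quantile normalization, median-of-ratios scaling and array weights (adjusted p from 0.0113 to 0.0460). Mbtps1, the Golgi protease that makes the first cut in SREBP, was the highest of the list with 47.3, 29.3 and 38.7 RPKM against 25.5, 29.4 and 28.2 RPKM (log2 change -0.43, adjusted p = 0.0940), and without infant replicate 2 it passed with a log2 change of -0.61 (adjusted p = 0.00676). Erlin2, which takes part in sterol-regulated degradation, had a log2 change of 0.11 (adjusted p = 0.445).

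Of 14 genes that use isoprenoids for prenylation, ubiquinone or dolichol, 1 rose and 0 fell, with a median log2 change of 0.05. The gene that rose was Rabggta, a subunit of the enzyme that prenylates Rab proteins, with 24.0, 24.3 and 22.9 RPKM in infant EC and 32.1, 33.7 and 34 RPKM in young adult EC (log2 change 0.47, adjusted p = 0.00939, limma). Ggps1, which extends farnesyl to geranylgeranyl pyrophosphate and so competes with squalene synthesis, had 24.8, 25.6 and 24.6 RPKM against 26.1, 23.9 and 24.9 RPKM (95% interval of the log2 change -0.20 to 0.20). Zmpste24, which processes farnesylated prelamin A, had a log2 change of 0.15 (adjusted p = 0.246).

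Fatty acid synthesis is driven mainly by SREBP1. Of 12 genes of this list, 1 rose and 2 fell, with a median log2 change of -0.12. Elovl5, an elongase of polyunsaturated fatty acids, had 80.5, 117.7 and 85.6 RPKM in infant EC and 169.4, 165.8 and 136.1 RPKM in young adult EC (log2 change 0.74, adjusted p = 0.0200, limma). The desaturases Scd2 and Fads2 fell by 0.91 and 1.21 on the log2 scale (adjusted p = 0.0339 and 0.0130). Scd2 stood at 38.2, 18.5 and 35.6 RPKM in infant EC and 14.2, 16.6 and 14.7 RPKM in young adult EC, and the fibroblast sums were likewise lowest among infant libraries in replicate 2. Leaving out infant replicate 1, infant replicate 3 or young adult replicate 1 or 2 took the adjusted p of Elovl5 to between 0.0654 and 0.0841, leaving out any library but infant replicate 2 took that of Scd2 to between 0.0897 and 0.108, and leaving out young adult replicate 1 took that of Fads2 to 0.05002. Scd1 and Acly had log2 changes of 0.56 and 0.09 and did not pass (adjusted p = 0.205 and 0.537).

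Of 13 tested genes for the uptake and transport of sterols, 1 rose and 3 fell, with a median log2 change of -0.09. Tmem97 and Gramd1a of these 4 were named after their values were seen. Tmem97, a sterol-regulated protein of the endoplasmic reticulum, rose from 8.9, 9.7 and 8.9 RPKM to 13.1, 13.8 and 15.7 RPKM (log2 change 0.58, adjusted p = 0.00799, limma). Lrp1, an endocytic receptor of lipoprotein remnants, was at 12, 2.6 and 10.2 RPKM in infant EC and 0.3, 0.7 and 0.7 RPKM in young adult EC (log2 change -2.37, adjusted p = 0.0102). Beside it, the fibroblast sums were 1268, 319 and 877 RPKM in infant EC and 8.8, 21.3 and 20 RPKM in young adult EC, and their part in the result was not tested. Vldlr, a lipoprotein receptor, was at or below 1.4 RPKM in all libraries (log2 change -0.85, adjusted p = 0.00842), and Gramd1a, a sterol carrier between membranes, had a log2 change of -0.38 (adjusted p = 0.0354, and between 0.0832 and 0.107 without any one library but infant replicate 2). It also missed the threshold with TPM scaling (adjusted p = 0.0959) and quantile normalization (adjusted p = 0.107). With quantile normalization the adjusted p of Vldlr was 0.0851. Scarb1, the receptor for high density lipoprotein and the highest of the list, had 62.6, 106.9 and 59.5 RPKM against 89.9, 94.4 and 90.1 RPKM (log2 change 0.31, adjusted p = 0.313). Without infant replicate 2, the highest of the 6 libraries, its log2 change was 0.58 (adjusted p = 0.00302). Npc2 and Stard3, which transport cholesterol at endosomes, had 95% intervals of -0.31 to 0.33 and -0.36 to 0.19.

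Of 6 tested genes of sterol efflux and of LXR, the nuclear receptor that senses oxysterols, 3 fell past the fold limit and 1 rose, with a median log2 change of -0.69. Among all 12458 genes tested, 1009 fell past the fold limit and 9.26% rose. Abca1, the pump that loads cholesterol onto apolipoproteins, had 9.4, 6.6 and 8.0 RPKM in infant EC and 2.2, 1.8 and 2.3 RPKM in young adult EC (log2 change -1.53, SE 0.14, adjusted p = 0.000998, limma). Nr1h3, which encodes LXR alpha, fell by 1.55 on the log2 scale (adjusted p = 0.00146), from 7.6, 6.2 and 10.2 RPKM to 2.0, 2.1 and 2.0 RPKM. Mylip, a ubiquitin ligase for lipoprotein receptors induced by LXR, fell by 0.98 (adjusted p = 0.0168), from 10.4, 17.5 and 11.0 RPKM to 6.2, 4.6 and 7.2 RPKM. In these 3 genes the young adult values lay below every infant value, and the adjusted p of Mylip was 0.0584 and 0.0698 without young adult replicate 1 and 2. Among infant libraries Abca1 and Nr1h3 were lowest in replicate 2, as were the fibroblast sums, while Mylip was highest there. The part of other cells in these falls was not tested. Abcg1, the highest of the list, had 53.7, 64.0 and 50.6 RPKM against 38.9, 39.6 and 47.3 RPKM (log2 change -0.41, adjusted p = 0.0511, and from 0.0125 to 0.04998 in 7 alternatives), and Nr1h2, which encodes LXR beta, had a log2 change of -0.12 (adjusted p = 0.578). The gene that rose was Nceh1, a cholesteryl ester hydrolase named after its values were seen (log2 change 0.51, adjusted p = 0.0171, and between 0.0506 and 0.0611 without infant replicate 1 or 3 or young adult replicate 1).

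Of 5 tested genes of esterification and oxysterol metabolism, 2 rose and 0 fell. Ch25h, which makes 25-hydroxycholesterol, an oxysterol that binds INSIG, had 0.5, 2.9 and 0.5 RPKM in infant EC and 12.5, 12.2 and 8.5 RPKM in young adult EC (log2 change 2.53, SE 0.36, adjusted p = 0.00427, limma). Its infant values differed among themselves, and infant replicate 2 was the highest of them. Hsd3b7, an enzyme that turns oxysterols towards bile acids, had 31.2, 41.7 and 31.6 RPKM against 53.1, 53.2 and 47.0 RPKM (log2 change 0.55, adjusted p = 0.0234, and between 0.0768 and 0.0913 without infant replicate 1 or 3 or young adult replicate 1 or 2). Soat1, which esterifies cholesterol for storage, had a log2 change of -0.44 and did not pass (adjusted p = 0.195).

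**Figure D4:**
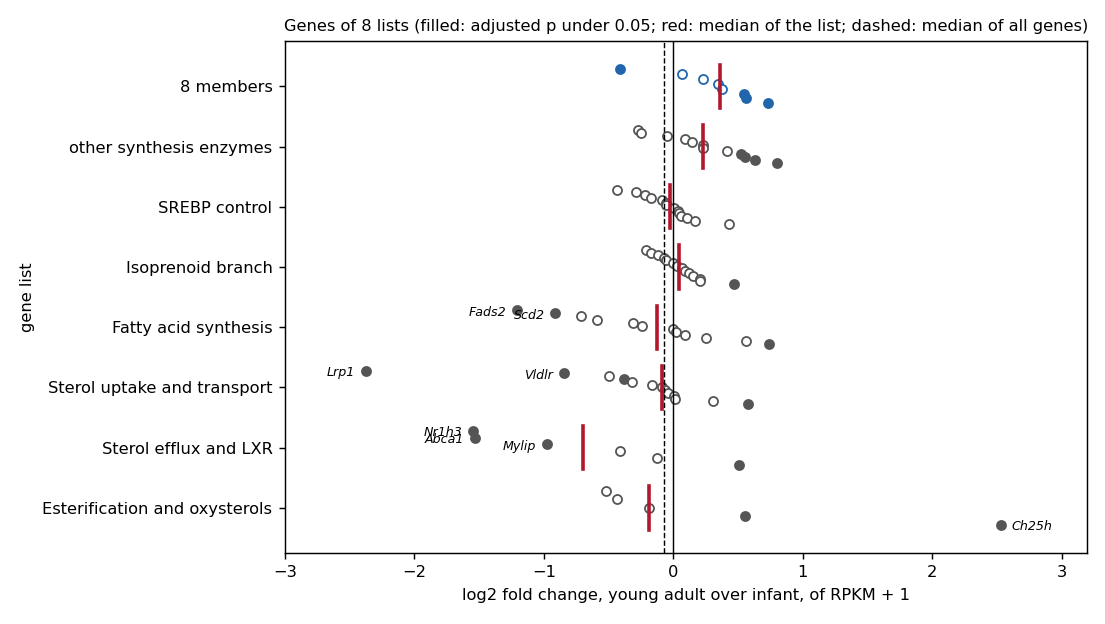
Log2 change of RPKM + 1, young adult over infant, of each tested gene in 8 lists, with filled points at an adjusted p under 0.05, the names of genes also past the fold limit, a red bar at the median of each list and a dashed line at the median of all genes (-0.07). The 8 members and the other synthesis enzymes have medians of 0.36 and 0.23, and the efflux and LXR list has a median of -0.69.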

How the data were processed

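RNA-seq of sorted lung EC was analysed in 6 libraries, grouped by their titles. Per the labels and the study's methods, cDNA was made with the SMARTer Ultra Low kit, and the authors aligned reads to mm10 with STAR and tested genes with DESeq2. The deposited values are the authors' RPKM on RefSeq transcripts, rounded to 1 decimal. Versions are not given in the sources used here, and read depth is unknown. Of 17241 rows, the row with the highest mean was kept for each of 12623 genes, and 24 rows whose symbols had become dates were restored. Because the values were RPKM, limma 3.58.1 in R 4.3.3 (lmFit, eBayes with trend, age as the only term, Benjamini-Hochberg adjustment over all genes) was run on log2(RPKM + 1), for 12458 genes with at least 1 RPKM in at least 1 library. The script was tested on simulated data. "Rose" and "fell" mean an adjusted p under 0.05, and the fold limit (0.81 on the log2 scale) is that of the study. Nothing in the labels says that libraries came from separate animals, so p-values measure the spread between these libraries, which may be technical.

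1 gene was left out of the lists and of all their counts and is not reported here. The 8 genes and all lists were chosen with earlier results of these data known. Named from each pathway list were genes past both limits and the 3 with the highest mean RPKM, and from the whole table the 5 genes most like the mean profile. Replicate numbers gave correlations of deviations of 0.03, -0.11 and -0.02 for same-numbered libraries, so they were not used as pairs. Alternatives were pseudocounts of 0.1 and 5, other filters, scalings, variance models, transcript rows and thresholds, a replicate block, and leaving out each library in turn. Motif searches used RefSeq promoter windows.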

Additional observations from a re-analysis of the deposited data

How the results depend on the processing

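The directions of all 8 genes except Cyp51 held under every alternative, over which the log2 fold change of Hmgcs1 ranged from -0.51 to -0.34, that of Fdps from 0.58 to 0.87, that of Idi1 from 0.39 to 0.65 and that of Insig1 from 0.31 to 0.72. Of the 8 genes, 0 passed the fold limit, and 0 to 1 when a library was left out (Fdps without infant replicate 2). The count that rose was 3, 5 with quantile normalization, and 1 to 3 when a library was left out, the low value coming without young adult replicate 1 or 2. The count that fell was 1, 0 with TPM scaling, and 0 to 1 when a library was left out. The number of further enzymes past the limit was 0, 1 (Msmo1) at a pseudocount of 0.1 and with TPM scaling, quantile normalization or median-of-ratios scaling, and 0 to 1 when a library was left out (Msmo1 without infant replicate 2 or 3 or young adult replicate 2 or 3). Signs of log2 fold changes near 0 turned in Cyp51 (-0.0220), Acly (-0.0167) and Npc2 (-0.0940) when rescaled without globin genes, in Npc2 (-0.0729) with quantile normalization, in Insig2 (0.00204) with array weights, and in Ggps1 with TPM (0.0216) or median-of-ratios scaling (0.0211). With a library left out, Cyp51 ranged from -0.108 to 0.197, Insig2 from -0.128 to 0.0363, Ggps1 from -0.0338 to 0.0273 and Npc2 from -0.0992 to 0.130. The causes were not tested. Quantile normalization moved the median of all genes from -0.07 to 0.04 on the log2 scale. With a replicate block, 0 of the 8 genes fell (Hmgcs1 adjusted p = 0.0501), the calls of Scd2 (adjusted p = 0.0572) and Gramd1a (adjusted p = 0.0647) were lost, no other call on a named gene changed, and 1371 in place of 1424 of all genes passed both limits. None of the 3 infant libraries correlated best with the young adult library of its own number.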
